A study of Homo sapiens with 6 samples.

Results

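The genes described here are the hypoxia-inducible transcription factor genes HIF1A and EPAS1 and 8 known targets of these factors outside glycolysis, namely VEGFA, ADM, BNIP3, BNIP3L, CA9, NDRG1, EGLN3 and ANKRD37. They were taken by gene symbol from a table of 20388 symbols, and all 10 were found there. The cells were MHCC-97H, a human liver cancer line with the genotype label WT. GK921, which inhibits the protein cross-linking enzyme transglutaminase 2, was given at 2 µM before 3 of the RNA libraries were made, and the solvent DMSO before the other 3. Both exposures lasted 24 h, and the labels give no oxygen level. Nothing in the labels states that replicates were separate cultures, so p-values measure the spread between libraries, which may be technical.

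Hypoxia-inducible factors (HIFs) are dimers of an oxygen-regulated alpha subunit, such as HIF-1alpha (gene HIF1A) or HIF-2alpha (gene EPAS1), and a stable partner, ARNT. When oxygen is present, prolyl hydroxylases of the EGLN family mark the alpha subunit for the VHL ubiquitin ligase, which sends it to the proteasome, so the protein level of HIF is set largely after translation and is not read by RNA sequencing. In hypoxia the dimer binds hypoxia response elements and raises genes of blood vessel growth, mitophagy, pH control and glycolysis, a programme that is often active in liver cancer.

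Values are FPKM, a read density scaled to transcript length and library total, as deposited. Those genes whose mean over the 6 libraries reached 1 FPKM were tested with limma on log2(FPKM + 1), and a gene with a Benjamini-Hochberg adjusted p under 0.05 over all 11573 tested genes is called higher or lower. Of all tested genes, 46.8% were called higher and 29.2% lower after GK921, 75.9% in all, and the median gene was 0.16 higher on the log2 scale. Rises made up 61.6% of calls as deposited and 49.1% after median-ratio rescaling of the libraries, which put the median gene near 0, at -0.0013. Absolute depth is unknown. From the steps between low FPKM values, depths relative to the first DMSO library were 0.768, 0.771 and 0.865 in the 3 GK921 libraries and 1, 0.943 and 0.871 in the 3 DMSO libraries. Of 10 liver markers, 7 had means under 1 FPKM in both groups, albumin (ALB) and alpha-fetoprotein (AFP) included. The keratin genes KRT8 and KRT18 had means of 1100 and 787 FPKM after GK921 and 1633 and 740 FPKM in DMSO. HNF4A, the remaining liver marker, averaged 8.57 FPKM after GK921 and 9.11 FPKM in DMSO. The endothelial markers CDH5, ERG and CLDN5 were listed at 0 in all 6 libraries, while PECAM1 averaged 3.94 FPKM after GK921 and 3.83 FPKM in DMSO. The 6 endothelial markers summed to 4.38 to 7.16 FPKM in GK921 libraries and 4.26 to 6.04 FPKM in DMSO libraries. Of 6 immune markers, 5 were under the expression limit, and CD68 averaged 99.7 FPKM after GK921 and 109 FPKM in DMSO. The 6 stromal markers summed to 22.6 to 28.6 FPKM in GK921 libraries and 48.5 to 52.4 FPKM in DMSO libraries, almost all of it LUM and DCN, with COL1A1 and COL3A1 at or near 0, and their part in the results was not tested.

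Hypoxia response elements share the core ACGTG or GCGTG, which was searched on both strands of the 250 bases before each RefSeq gene start (build GRCh38.p14). Of the 10 genes, 7 matched the RefSeq promoter table. VEGFA, BNIP3L and NDRG1 did not. The windows of BNIP3 and ANKRD37, which hold the most cores, and of CA9, the member that fell, are printed. Whether cores relate to the changes was not tested. Capitals mark the core on either strand, so CACGT and CACGC are the cores of the opposite strand, and CACGTG holds overlapping cores of both strands. The BNIP3 window lies at chr10:131981924-131982173 on the minus strand, the ANKRD37 window at chr4:185396591-185396840 on the plus strand and the CA9 window at chr9:35673678-35673927 on the plus strand. Each is written 5′ to 3′ on the strand of the gene. RefSeq starts can differ from the GENCODE gene positions given below. By those positions, the ANKRD37 window lies inside the gene, and the BNIP3 and CA9 windows lie partly inside. Of the windows not printed, those of ADM, EPAS1, EGLN3 and the downstream start of HIF1A also lie inside the gene.
BNIP3: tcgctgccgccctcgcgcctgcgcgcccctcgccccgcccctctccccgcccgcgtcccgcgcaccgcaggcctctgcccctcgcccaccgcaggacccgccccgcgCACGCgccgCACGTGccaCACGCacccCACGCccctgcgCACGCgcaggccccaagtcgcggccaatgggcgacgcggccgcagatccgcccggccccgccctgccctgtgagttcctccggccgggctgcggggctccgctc
ANKRD37: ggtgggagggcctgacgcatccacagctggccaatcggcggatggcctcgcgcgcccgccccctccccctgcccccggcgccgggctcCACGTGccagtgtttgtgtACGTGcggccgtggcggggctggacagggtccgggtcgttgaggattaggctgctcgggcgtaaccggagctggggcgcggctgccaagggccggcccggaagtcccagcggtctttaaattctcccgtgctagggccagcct
CA9: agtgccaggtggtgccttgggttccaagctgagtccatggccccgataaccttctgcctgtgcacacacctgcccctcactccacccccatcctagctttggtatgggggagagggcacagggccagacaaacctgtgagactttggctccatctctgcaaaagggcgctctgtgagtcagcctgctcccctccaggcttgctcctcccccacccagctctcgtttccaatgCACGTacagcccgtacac
There were 6 cores before BNIP3, 3 before ANKRD37 and 1 before CA9. The cores of BNIP3 began 104 to 143 bases before the start, and that of CA9 began 18 bases before it. Single cores stood before ADM, EPAS1 and the upstream start of HIF1A, and none stood before EGLN3 or the downstream start of HIF1A. Over all 35116 promoters of the table, 43.2% held at least 1 core, against 6 of the 8 windows of the genes described here. The windows of these genes are rich in G and C, apart from the downstream start of HIF1A, at 60.4% to 81.6%. The core of the C/EBP-ATF response element, TGATGNAA, was in none of the 8 windows and in 3.14% of all promoters. With a share that low, finding none in 8 windows tells little, and VEGFA, BNIP3L and NDRG1 were not searched. A match of letters is a description and says nothing of whether a factor bound there.

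**Figure D1:**
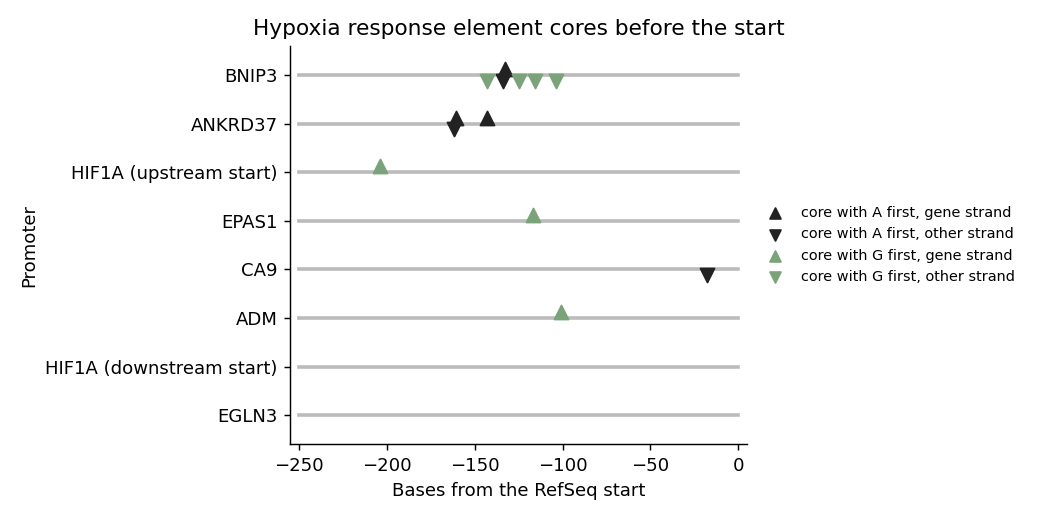
Positions of hypoxia response element cores (triangles, pointing up for the strand of the gene and down for the other strand) in the 250 bases before each RefSeq start, as distance from the start in bases. BNIP3 has 6 cores and ANKRD37 has 3, while EGLN3 and the downstream start of HIF1A have none.

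Across the 10 genes, 8 of the 9 that could be tested rose after GK921 and 1, CA9, fell. The share called higher among all tested genes was 46.8%, and the share called lower 29.2%. EGLN3, the remaining gene, was near 0 in every library and was not tested. The median log2 change of the 9 tested genes was 0.69, against 0.16 for all tested genes. The groups did not overlap for any of the 9, as was the case for 78% of all tested genes. The size of change varied widely, as VEGFA rose 4.02-fold and ADM 1.25-fold. In bulk RNA, fewer cells expressing a gene and less RNA per cell cannot be told apart. These genes were chosen with results of the same libraries known, so their counts are a description.

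**Figure D2:**
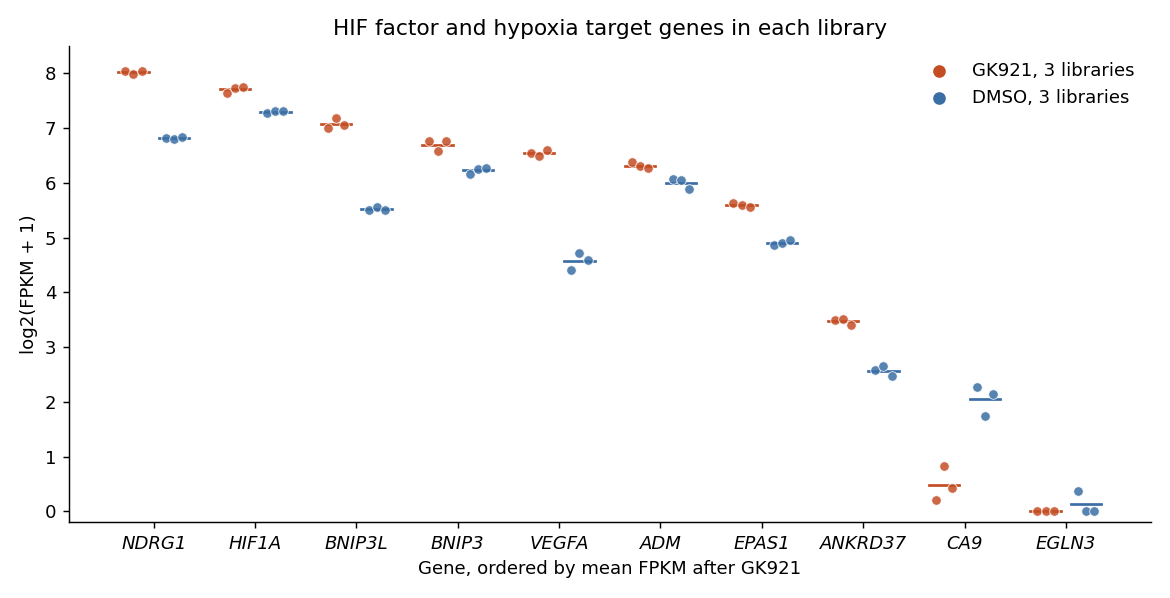
Level of each of the 10 genes in each library, as log2(FPKM + 1), with GK921 libraries in orange to the left of DMSO libraries in blue and bars at the group means. The groups are separate for 9 genes, GK921 lies below DMSO only for CA9 among these, and EGLN3 is at 0 in 5 of 6 libraries.

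Both factor genes were higher after GK921. HIF1A (chromosome 14, 61695513 to 61748259 in GRCh38) encodes the alpha subunit found in most cells. Its values were 199, 211 and 214 FPKM in GK921 libraries, against 154, 157 and 157 FPKM in DMSO libraries. All 3 GK921 values lay above all 3 DMSO values. The means were 208 ± 7.79 FPKM after GK921 and 156 ± 1.58 FPKM in DMSO (SD, n = 3 each, as for all means below). HIF1A thus rose 1.33-fold, with a log2 change of 0.41 ± 0.035 (SE, limma adjusted p = 5.72e-06), above that of 65.7% of tested genes. With median-ratio rescaling the change was 0.24. EPAS1 (chromosome 2, 46293667 to 46386703) encodes the alpha subunit best known for control of erythropoietin and iron genes. It was at 48.7, 47.3 and 45.8 FPKM in GK921 libraries and at 28.2, 28.7 and 29.9 FPKM in DMSO libraries, again without overlap. This was a 1.63-fold rise, with a log2 change of 0.69 ± 0.047 (limma adjusted p = 1.49e-06), above that of 80.2% of tested genes. It was 0.52 with median-ratio rescaling.

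HIF1A kept the higher FPKM of the pair in every library. FPKM is set per length of transcript, which allows only a rough comparison of level between genes. HIF1A was at 4.09, 4.47 and 4.66 times the FPKM of EPAS1 in GK921 libraries, against 5.46, 5.47 and 5.25 times in DMSO libraries. The ratio was thus lower in each GK921 library, by 0.29 on the log2 scale. An exact two-sided permutation test gave p = 0.1, the smallest that 3 against 3 allow, and this ratio was chosen after the values were seen. HIF1A shares exon sequence with AL137129.1 on the same strand and HIF1A-AS1 on the opposite strand and has 1 named pseudogene, and the sources used here do not say whether counting used strand.

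The secreted vessel factors moved by very different amounts. VEGFA (chromosome 6, 43770184 to 43786487) encodes the main growth factor for endothelial cells and, besides HIF, is a known target of the stress factor ATF4. Its exons overlap those of AL136131.3 on the opposite strand. It was at 92.3, 88.8 and 95.5 FPKM in GK921 libraries, against 20.3, 25.4 and 23.1 FPKM in DMSO libraries. The lowest GK921 value was well above the highest DMSO value, and the spread within DMSO was the wider, with a coefficient of variation of 11.0% against 3.65% after GK921. The 4.02-fold rise had a log2 change of 1.97 ± 0.074 (limma adjusted p = 3.12e-08), above that of 98.5% of tested genes. ADM (chromosome 11, 10304680 to 10307397) encodes adrenomedullin, a peptide that widens vessels. Its values were 82.3, 77.7 and 76.0 FPKM after GK921, and 66.2, 65.1 and 57.9 FPKM in DMSO. The groups did not overlap, but the gap was small. The 1.25-fold rise had a log2 change of 0.32 ± 0.058 (limma adjusted p = 0.000915). With median-ratio rescaling of the libraries it was 0.14 and not called (limma adjusted p = 0.0555), where the median gene was near 0. As deposited, ADM was 0.16 above the median gene.

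Most listed receptor genes of VEGF and adrenomedullin signalling were low or not detected in these cells. The VEGF receptor genes FLT1 and FLT4 were listed at 0 in all 6 libraries, as were RAMP2 and RAMP3, whose products turn the receptor CALCRL into an adrenomedullin receptor. CALCRL was at 0.47 ± 0.325 FPKM after GK921 and 0.377 ± 0.0351 FPKM in DMSO. Of 14 listed genes of VEGF and adrenomedullin signalling, 6 were tested, 3 rose and 2 fell, or 50% and 33.3%, close to the 46.8% and 29.2% of all tested genes. Their median log2 change was 0.27, against 0.16 for all tested genes. ADM2, which encodes the related peptide intermedin, was at 12.7, 13.5 and 13.4 FPKM in GK921 libraries and at 1.28, 1.17 and 0.21 FPKM in DMSO libraries. That is a 14.9-fold rise from low values (limma adjusted p = 2.44e-06), and ADM2 reached the limit of 1 FPKM only through its GK921 values. KDR, the main VEGF receptor gene, was at 2.69 ± 0.185 FPKM after GK921 and 1.62 ± 0.250 FPKM in DMSO (limma adjusted p = 0.00582), and the co-receptor gene NRP2 rose 1.47-fold (limma adjusted p = 0.00626). Both calls were lost with quantile normalization, which left ADM2 alone called higher. The other VEGF co-receptor gene, NRP1, fell to 34.8 ± 1.40 FPKM after GK921, against 63.8 ± 1.39 FPKM in DMSO. RAMP1, a partner of the receptor for the related peptide CGRP, fell to 3.58 ± 0.700 FPKM, against 12.2 ± 1.70 FPKM in DMSO.

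The mitophagy receptor genes BNIP3 and BNIP3L changed places in order of level. Their products sit in the outer mitochondrial membrane and tether mitochondria to autophagosomes. BNIP3L (chromosome 8, 26382898 to 26505636), also called NIX, was at 127, 144 and 132 FPKM in GK921 libraries, against 44.3, 46.4 and 44.1 FPKM in DMSO libraries. The groups stood far apart. It rose 2.99-fold, with a log2 change of 1.56 ± 0.051 (limma adjusted p = 1.35e-08), above that of 96.7% of tested genes. BNIP3 (chromosome 10, 131966455 to 131982013), whose window with 6 cores is printed above, was at 107, 94.9 and 107 FPKM after GK921 and at 71.0, 75.2 and 76.7 FPKM in DMSO. It rose 1.39-fold, with a log2 change of 0.47 ± 0.056 (limma adjusted p = 5.77e-05), above that of 68.8% of tested genes. The log2 change was 0.29 with median-ratio rescaling.

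BNIP3L stood at 1.18, 1.52 and 1.23 times the FPKM of BNIP3 in GK921 libraries, against 0.624, 0.617 and 0.576 times in DMSO libraries. BNIP3 was therefore the higher of the pair in every DMSO library and BNIP3L in every GK921 library. The log2 ratio was 1.11 greater after GK921 (exact two-sided permutation p = 0.1, the smallest possible), a comparison made after the values were seen. BNIP3 has 39 named pseudogenes in the GENCODE annotation, and the sources used here do not say how shared reads were counted. BNIP3L shares exon sequence on the opposite strand with PNMA2, which was at 1.32 ± 0.298 FPKM after GK921 and 0.13 ± 0.0781 FPKM in DMSO, far under the level of BNIP3L.

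Of 10 other listed receptors and factors of mitophagy, 9 were tested, 7 rose and 1 fell, against 46.8% higher and 29.2% lower among all tested genes. Their median log2 change was 0.83, against 0.16 for all tested genes. OPTN and CALCOCO2, which encode adaptors that link ubiquitin-marked mitochondria to autophagosomes, rose 3.21-fold and 2.19-fold (limma adjusted p = 1.15e-09 and 5.27e-08). BCL2L13, another receptor gene of the outer membrane, rose 1.89-fold (limma adjusted p = 2.07e-06). PHB2, an inner membrane receptor gene, fell to 179 ± 1.66 FPKM after GK921, against 246 ± 1.501 FPKM in DMSO (limma adjusted p = 5.18e-07).

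CA9 went against the other targets. It encodes carbonic anhydrase IX, a cell surface enzyme that helps tumour cells export acid, and it is widely used as a marker of hypoxia and HIF-1 activity. CA9 (chromosome 9, 35673856 to 35681159) was at 0.15, 0.77 and 0.34 FPKM in GK921 libraries, against 3.80, 2.33 and 3.41 FPKM in DMSO libraries. Every GK921 value lay below every DMSO value, and all values were low. The 7.57-fold fall had a log2 change of -1.56 ± 0.21 (limma adjusted p = 0.000109). The GK921 mean was 0.42 FPKM and the DMSO mean 3.18 FPKM, so the gene reached the expression limit of 1 FPKM only through its DMSO values. It was also called lower with no limit. With any 1 library left out, the fall in mean FPKM ranged from 5.73-fold, without the first GK921 library, to 13.0-fold, without the second. The log2 change was -2.81 with a pseudocount of 0.1 and -0.59 with a pseudocount of 5, and the gene was called lower in both. Its exons overlap those of ARHGEF39 on the opposite strand. ARHGEF39 moved the same way, at 2.37, 2.04 and 2.84 FPKM in GK921 libraries and 14.4, 15.1 and 14.3 FPKM in DMSO libraries (limma adjusted p = 1.23e-07). Without a stated use of strand, reads of the overlapping exons cannot be assigned with certainty, and the part of ARHGEF39 in the fall of CA9 was not tested.

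Other carbonic anhydrase genes differed in direction. CA12, which encodes the other tumour-linked surface isoform, fell to 23.2 ± 1.00 FPKM after GK921, against 65.0 ± 1.67 FPKM in DMSO, a 2.80-fold fall (limma adjusted p = 1.60e-08). CA12 was listed with the other hypoxia targets. Of 9 further listed paralogs of CA9 and NDRG1, 5 were tested, 3 rose and 0 fell by the limma test, against 46.8% higher and 29.2% lower among all tested genes. The cytosolic CA2 rose 3.17-fold to 11.0 ± 1.24 FPKM, against 3.47 ± 1.33 FPKM in DMSO (limma adjusted p = 0.000194). The mitochondrial CA5B rose 2.08-fold (limma adjusted p = 0.00129).

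NDRG1 and ANKRD37 each rose by more than 2-fold. NDRG1 (chromosome 8, 133237171 to 133302022) encodes a stress-responsive cytoplasmic protein that hypoxia and iron chelation raise and that is known as a suppressor of metastasis in several tumours. It had the highest FPKM of the 10 genes after GK921, at 264, 253 and 262 FPKM, against 112, 111 and 113 FPKM in DMSO libraries. Replicates were tight, with coefficients of variation of 2.24% and 1.01% in GK921 and DMSO libraries. The 2.31-fold rise had a log2 change of 1.202 ± 0.030 (limma adjusted p = 3.18e-09). Of its paralogs, NDRG3 was at 59.9 ± 4.80 FPKM after GK921 and 55.8 ± 3.79 FPKM in DMSO (limma adjusted p = 0.215). NDRG4 was at 21.9 ± 1.01 and 17.7 ± 2.47 FPKM in GK921 and DMSO (limma adjusted p = 0.0154), a rise lost under quantile, upper-quartile and median-ratio scaling, and also without GK921 library 1 or DMSO libraries 1 or 3 (limma adjusted p = 0.0501, 0.0549 and 0.0558).

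ANKRD37 (chromosome 4, 185396021 to 185400628) encodes a small ankyrin repeat protein and is a direct HIF-1 target. It was at 10.3, 10.5 and 9.56 FPKM in GK921 libraries, against 4.98, 5.29 and 4.53 FPKM in DMSO libraries. The groups were separate, and the 2.05-fold rise had a log2 change of 0.90 ± 0.086 (limma adjusted p = 1.29e-05). ANKRD37 shares exon sequence on the opposite strand with UFSP2, a protease gene of the UFM1 pathway. UFSP2 also rose, to 32.5, 36.7 and 35.1 FPKM in GK921 libraries, against 13.2, 13.6 and 12.9 FPKM in DMSO libraries (limma adjusted p = 1.13e-07). The part of UFSP2 reads in the values of ANKRD37 was not tested.

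EGLN3 encodes a prolyl hydroxylase that HIF itself induces, as a brake on the pathway. It was listed at 0 in the 3 GK921 libraries and in 2 of the 3 DMSO libraries, and at 0.30 FPKM in the first DMSO library. It was under the expression limit, and an exact two-sided permutation test gave p = 1. With only 1 value above 0, that result was fixed whatever the grouping. The gene lies on chromosome 14, from 33924231 to 34462774, and its level was too low to compare the groups.

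**Figure D3:**
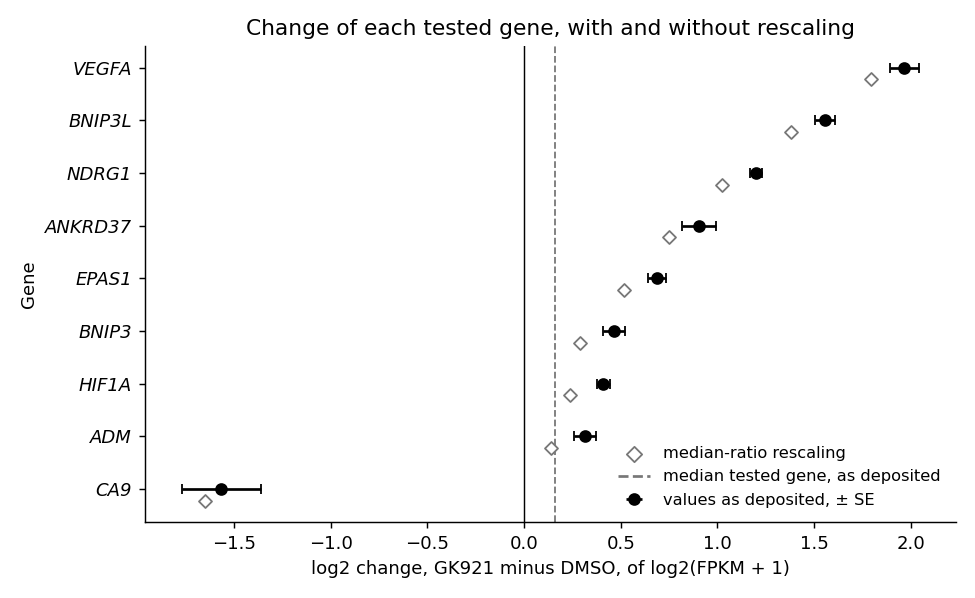
Log2 change of each tested gene, GK921 minus DMSO, of log2(FPKM + 1), as deposited (black points with SE) and after median-ratio rescaling (open diamonds), with the median tested gene as a dashed line. VEGFA at 1.97 and BNIP3L at 1.56 lie farthest to the right, CA9 at -1.56 lies to the left of 0, and ADM at 0.32 drops to 0.14 with rescaling.

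The partners and regulators of HIF were then examined. Of 16 listed genes, 15 were tested, 10 rose, 4 fell and 1 was not called, or 66.7% higher and 26.7% lower, against 46.8% and 29.2% of all tested genes. Their median log2 change was 0.24, against 0.16 for all tested genes. With median-ratio rescaling, 6 rose and 5 fell. ARNT, the common partner subunit, was at 40.9 ± 1.25 FPKM after GK921 and 27.8 ± 1.90 FPKM in DMSO (1.47-fold higher, limma adjusted p = 3.20e-05). Its paralog ARNT2 was low, at 4.21 ± 0.769 FPKM after GK921 and 3.01 ± 0.115 FPKM in DMSO. The call of ARNT2 (limma adjusted p = 0.0281) was lost with 3 of 4 rescalings and without any 1 library except the second GK921 library (limma adjusted p of 0.0501 to 0.0972). HIF3A, the gene of another alpha subunit, averaged 0.363 ± 0.289 FPKM after GK921 and 0.0633 ± 0.0569 FPKM in DMSO and was not tested.

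The oxygen-sensing hydroxylase genes did not move together. EGLN1, whose product is the main HIF prolyl hydroxylase, was at 8.68, 9.92 and 9.02 FPKM in GK921 libraries, against 19.4, 19.0 and 19.6 FPKM in DMSO libraries. It fell 2.10-fold, with a log2 change of -0.996 ± 0.069 (limma adjusted p = 1.57e-06). EGLN2, another prolyl hydroxylase gene, was at 50.9 ± 1.36 FPKM after GK921 and 43.1 ± 1.23 FPKM in DMSO (limma adjusted p = 0.00101), a rise not called with median-ratio scaling. EGLN2 had the highest FPKM of the 3 EGLN genes in both groups. HIF1AN encodes the asparaginyl hydroxylase FIH, which blocks the transactivation domain. It fell 1.32-fold to 15.8 ± 0.202 FPKM after GK921, against 20.8 ± 0.255 FPKM in DMSO (limma adjusted p = 0.000186). Neither HIF1AN (limma adjusted p = 0.0646) nor EGLN2 was called in the test against a 1.2-fold change.

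Genes of the VHL ubiquitin ligase moved in opposite directions. VHL, the subunit that recognises hydroxylated HIF, was at 84.6, 86.8 and 86.3 FPKM in GK921 libraries, against 46.8, 53.1 and 61.8 FPKM in DMSO libraries, a 1.59-fold rise (limma adjusted p = 8.42e-05). RBX1, the ring subunit shared by many cullin ligases, fell to 68.7 ± 6.78 FPKM after GK921, against 136 ± 14.8 FPKM in DMSO (limma adjusted p = 9.11e-06). ELOC, which links VHL to the cullin, was 1.11-fold lower at 322 ± 12.6 FPKM, against 359 ± 12.2 FPKM in DMSO (limma adjusted p = 0.00474). The call of ELOC was lost in the test against a 1.2-fold change. ELOB, its partner, was at 262 ± 8.18 and 243 ± 7.24 FPKM in GK921 and DMSO (limma adjusted p = 0.0182), a call lost with median-ratio and upper-quartile scaling, where the sign turned. It was also lost without the first GK921 library or the first or second DMSO library (limma adjusted p = 0.0581, 0.0584 and 0.0666). The cullin gene CUL2 was at 34.7 ± 0.663 FPKM after GK921 and 34.1 ± 0.638 FPKM in DMSO (limma adjusted p = 0.605). With median-ratio rescaling its log2 change was -0.14 and it was called lower (limma adjusted p = 0.0161).

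CITED2, SIAH1 and SIAH2 had the highest log2 changes of the 16 listed genes. CITED2, a HIF target whose product competes with HIF for the coactivators CBP and p300, was at 103, 107 and 112 FPKM in GK921 libraries, against 33.4, 38.6 and 30.4 FPKM in DMSO libraries (3.13-fold, limma adjusted p = 1.51e-07). SIAH1 and SIAH2, ubiquitin ligase genes whose products degrade some of the EGLN hydroxylases, rose 3.81-fold and 2.35-fold. SIAH1 was at 125 ± 0.609 FPKM after GK921 and 32.9 ± 1.33 FPKM in DMSO (limma adjusted p = 1.42e-09), and SIAH2 at 51.4 ± 4.46 and 21.9 ± 0.323 FPKM (limma adjusted p = 2.94e-07). The coactivator gene CREBBP rose to 15.5 ± 0.295 FPKM after GK921, against 10.4 ± 0.236 FPKM in DMSO (limma adjusted p = 4.60e-05). EP300 was at 20.6 ± 0.304 FPKM after GK921 and 18.6 ± 0.626 FPKM in DMSO (limma adjusted p = 0.0439), a call lost with 3 of 4 rescalings and without any 1 library except the first DMSO library (limma adjusted p of 0.0729 to 0.118). With median-ratio rescaling its log2 change was -0.028, and with the replicate number as a block it was not called (limma adjusted p = 0.0771).

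**Figure D4:**
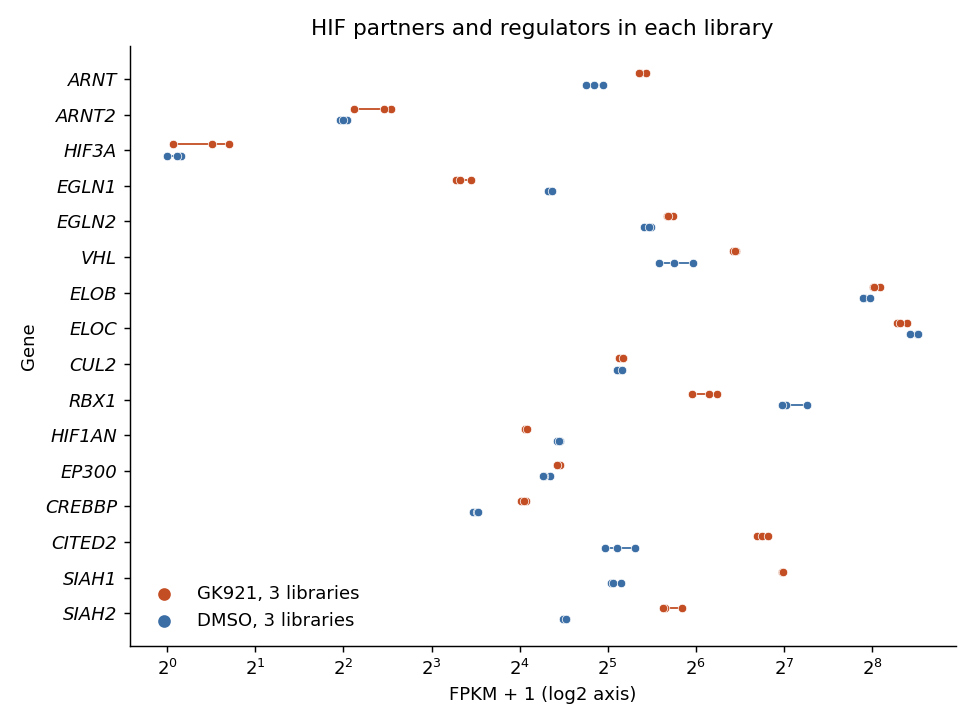
FPKM + 1 on a log2 axis of 16 HIF partner and regulator genes in each library, with GK921 in orange above DMSO in blue and a line over the range of each group. SIAH1, CITED2 and SIAH2 lie to the right after GK921, and EGLN1 and RBX1 lie to the left.

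Known hypoxia targets outside and within glycolysis had opposite medians. Of 39 other non-glycolytic targets, 33 were tested, 23 rose and 8 fell, or 69.7% and 24.2%, against 46.8% and 29.2% of all tested genes. Their median log2 change was 0.61, against 0.16 for all tested genes. DDIT4, an inhibitor of mTORC1 signalling that ATF4 also induces, was at 354, 372 and 344 FPKM in GK921 libraries, against 50.6, 48.8 and 52.2 FPKM in DMSO libraries (7.05-fold, limma adjusted p = 2.24e-10). MAFF, a small MAF transcription factor gene, rose 4.76-fold to 58.2 ± 3.04 FPKM (limma adjusted p = 8.60e-07). PDGFB, a growth factor gene for pericytes, rose to 6.56 ± 1.43 FPKM, against 1.11 ± 0.523 FPKM in DMSO (limma adjusted p = 4.76e-05). CA12 was the listed target that fell most.

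Of 22 glycolytic targets, 21 were tested, 17 fell and 2 rose, or 81.0% and 9.52%. Their median log2 change was -0.66, against 0.16 for all tested genes. Among all tested genes, 29.2% were called lower and 46.8% higher. PKM, which encodes the last enzyme of glycolysis, was at 574, 575 and 577 FPKM in GK921 libraries, against 1636, 1627 and 1634 FPKM in DMSO libraries (2.84-fold lower, limma adjusted p = 1.14e-10). LDHA, the lactate dehydrogenase gene that is a classic HIF-1 target, fell 2.56-fold to 381 ± 11.1 FPKM, against 974 ± 5.66 FPKM in DMSO (limma adjusted p = 9.09e-10), and PGAM1 fell 2.48-fold. SLC2A1, the glucose transporter gene GLUT1, rose 2.20-fold to 202 ± 4.14 FPKM, against 91.9 ± 4.56 FPKM in DMSO (limma adjusted p = 2.59e-08). PDK1, a pyruvate dehydrogenase kinase gene, was the other rise, to 40.7 ± 3.06 FPKM, against 22.5 ± 1.45 FPKM in DMSO. It is named after its values were seen. Cores were found in 36 of 44 promoter windows of the other non-glycolytic targets and in 26 of 41 windows of the glycolytic targets, against 43.2% of all windows. These windows came from 30 and 21 genes, so genes with several starts count more than once. The share over all windows was not matched for G and C content. No test was made of either list as a whole.

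**Figure D5:**
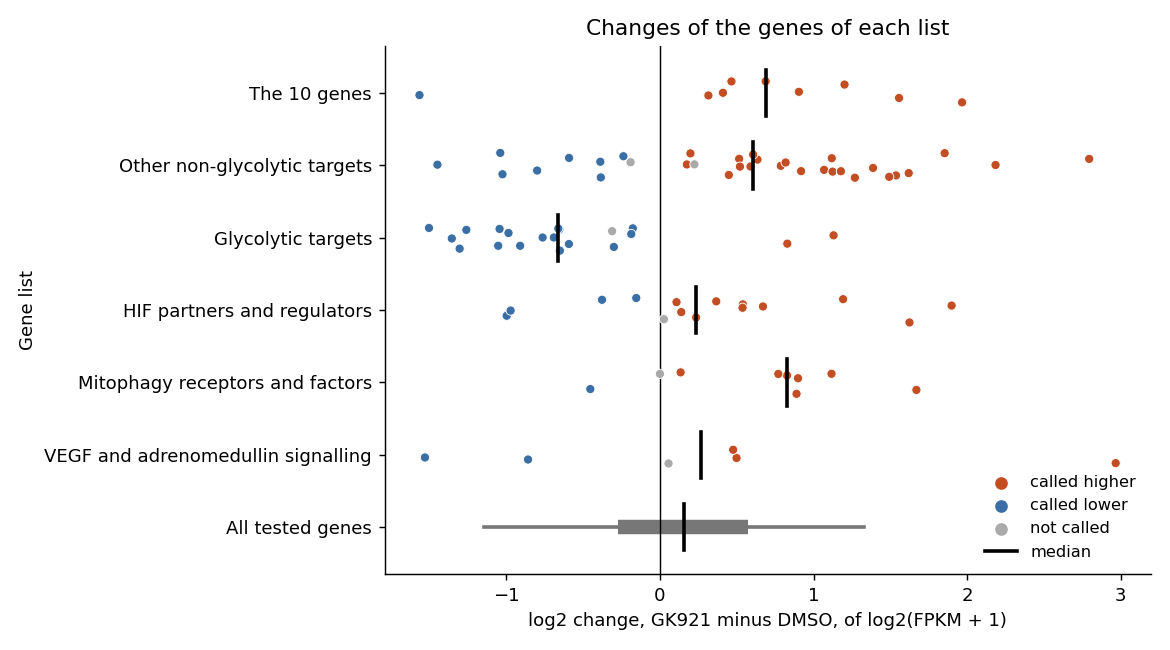
Log2 change, GK921 minus DMSO, of the tested genes of each list (orange called higher, blue called lower, grey not called), with medians as black bars. For all tested genes the thick bar spans the middle 50% and the thin line the middle 90%. The other non-glycolytic targets have a median of 0.61 and the glycolytic targets one of -0.66.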

How the data were processed

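RNA abundance was measured in 6 MHCC-97H libraries, 3 given GK921 and 3 given DMSO, grouped by the treatment labels. Build hg38 and the tools HISAT2, featureCounts, edgeR and FastQC 0.11.5 appear in the submitters' processing notes, with no role stated. Strand use and annotation release were not given in those sources. The authors deposited FPKM per gene symbol, per the file headers and name. FPKM is relative to each library's total, so a change in RNA content per cell is not visible.

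The test was limma 3.58.1 (R 4.3.3), applied to log2(FPKM + 1) with treatment as the only term, an intensity trend and Benjamini-Hochberg adjustment over all tested genes. Low genes change less on this scale than in FPKM, and a fold is the ratio of the group means in FPKM. The procedure was checked on simulated data in which few genes changed. Most tested genes were called here, so that check cannot show how the calls behave in these data. Positions come from GENCODE release 29 (GRCh38) and promoter windows from RefSeq (GRCh38.p14). Lists were described by counts and medians, without a set test. All 10 members were named, and of each pathway list up to 4 called genes by size of change, with both directions where called, and every HIF partner or regulator. NRP2, NDRG3 and PDK1 were named after their values were seen. The members, lists and tests were chosen with earlier results of these data known. Alternatives were 2 pseudocounts, 2 expression limits, 4 rescalings, the replicate number as a block, no intensity trend, a test against a 1.2-fold change (treat) and each library left out.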

Additional observations from a re-analysis of the deposited data

How the results depend on the processing

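Over 17 alternatives, or 16 for CA9, the tested members kept their direction, and 150 of 152 results kept their call. The exceptions were ADM with median-ratio rescaling and ADM in the test against a 1.2-fold change (limma adjusted p = 0.318). Without any 1 library, 8 members were called higher and 1 lower. With a limit of 5 FPKM, CA9 left the test, so 0 members were called lower (limma) and 2 were under the limit, against 1 with the limit of 1 FPKM and 0 with no limit. In the fit with no limit EGLN3 had a log2 change of -0.13 (limma adjusted p = 0.358). The samples share only replicate numbers: deviations of same-numbered libraries from their group means correlated at 0.031, 0.047 and -0.0021. With the replicate block 8 members were called higher and 1 lower, 5351 genes were higher and 3355 lower, and EP300 lost its call.

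The median gene was -0.0013 with median-ratio rescaling and 0.027 with quantile normalization, and the share of calls that were rises was 49.1% and 51.9%, against 61.6% as deposited. Left-out libraries gave 5151 to 5226 genes higher and 3209 to 3279 lower. The 1.2-fold test called 3595 genes higher and 2135 lower, and for the HIF partners and regulators 6 higher and 2 lower. These partners and regulators had 6 higher with median-ratio rescaling and 7 to 9 higher without any 1 library. With median-ratio rescaling the log2 change of ELOB was -0.067 (-0.0035 with upper-quartile scaling), of CUL2 -0.14 (limma adjusted p = 0.0161) and of EP300 -0.028. For VEGF and adrenomedullin signalling 1 was higher with quantile normalization and 1 in the 1.2-fold test. Of mitophagy genes 2 were lower with median-ratio rescaling. Among paralogs 1 was lower with no expression limit. Causes were not tested. Absolute depth is unknown, which limits CA9, EGLN3 and other genes near 0 most.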
